A study of Canis lupus familiaris with 12 samples.

Results

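In canine myoblasts, 87 genes stood at 0.5 times the luciferase level or less in cells carrying DUXC-ALT, while cells carrying canine DUXC or human DUX4 kept them at 0.75 times that level or more. They were drawn from 14736 gene rows that could be joined across the deposited tables, of which 12904 reached the minimum of 0.5 CPM in luciferase cells. CPM is a gene's read count scaled to a library of 1000000 gene counts. A group value was the mean CPM of its 3 libraries plus 0.1, and the rule used the values of all 4 groups. Differences of DUXC-ALT, DUXC or DUX4 from luciferase, and of DUXC-ALT from the other factors, are therefore descriptions of how the genes were chosen. The difference between DUXC and DUX4 was not used by the rule and was tested.

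Polyadenylated RNA was sequenced from immortalized canine myoblasts that carried an insert in pCW57.1, a lentiviral vector switched on by doxycycline. The insert was DUXC-ALT, DUXC, human DUX4 or, as the negative control, luciferase, with 3 libraries for each of the 4 groups. Per the protocol text, cells received doxycycline at 1 ug/ml over 24 h, and the treatment tag of the DUXC-ALT, DUXC and DUX4 samples names doxycycline, whereas for luciferase the same tag says no doxycycline. The insert and the doxycycline label therefore cannot be told apart in a comparison with luciferase, but the 3 factor groups share that label. All groups share the vector and the immortalized cells. The labels do not say whether a line was a single clone or whether each replicate had its own culture. The p-values thus describe the scatter of these libraries alone, and that scatter may be technical.

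DUX4 and DUXC are transcription factors with paired homeodomains. Human DUX4 is active in the early embryo, and its expression in skeletal muscle is linked to facioscapulohumeral muscular dystrophy; it is known as an activator of genes that muscle cells normally keep silent. The related factor of the dog is DUXC, of which DUXC-ALT is an alternative form. The comparison at hand is between the programmes of the canine forms and of the human factor. The gene rows used here carry no names, so rows are cited by their number in the authors' DUXC-ALT table, no role can be given to a gene, and neither myoblast markers nor the inserts themselves were read. CPM are not scaled by gene length, so they serve to compare groups for 1 gene. Between genes they compare the number of reads and not expression.

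The libraries held 15556477 to 20591033 gene counts. Replicates of a group correlated at 0.994 to 0.996 on log2 CPM across the 12904 genes, and no library stood apart. The 87 genes had few reads, a description not corrected for gene length. Their luciferase means ran from 0.503 to 41.5 CPM with a median of 1.333 CPM, against a median of 22.1 CPM over the 12904 genes. In a single luciferase library the median member had 21 to 28 reads, and in a single DUXC-ALT library it had 7 to 9 reads. Of the 87 genes, 61 lay under 2 CPM in luciferase cells, 14 at 2 to 5 CPM, 9 at 5 to 20 CPM and 3 above 20 CPM. Members made up 4.05% of all genes at 0.5 to 1 CPM and 0.0443% of those above 20 CPM.

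DUXC-ALT cells held these genes at a median of 0.402 times luciferase, while DUXC cells held them at a median of 1.55 times and DUX4 cells at 1.97 times. Over the 12904 genes the quartiles of the DUXC-ALT ratio were 0.914 and 1.18. The summed level of the 87 genes was 97.8 to 101 CPM in the 3 DUXC-ALT libraries, 1087 to 1106 CPM in the DUXC libraries and 1272 to 1310 CPM in the DUX4 libraries, against 280.2 to 307 CPM in the luciferase libraries. Without gene row 6601, the one with the most reads in luciferase cells, the sums were 87.3 to 90.7, 972 to 983 and 911 to 924 CPM, against 241 to 261 CPM in luciferase. The group sums did not overlap between any of the factors and luciferase, which for DUXC-ALT follows from the ceiling of the rule. The DUXC sums rested in part on gene rows 2977 and 8051, with DUXC means of 216 and 128 CPM. In bulk RNA, fewer cells expressing a gene and less RNA per cell cannot be told apart.

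**Figure D1:**
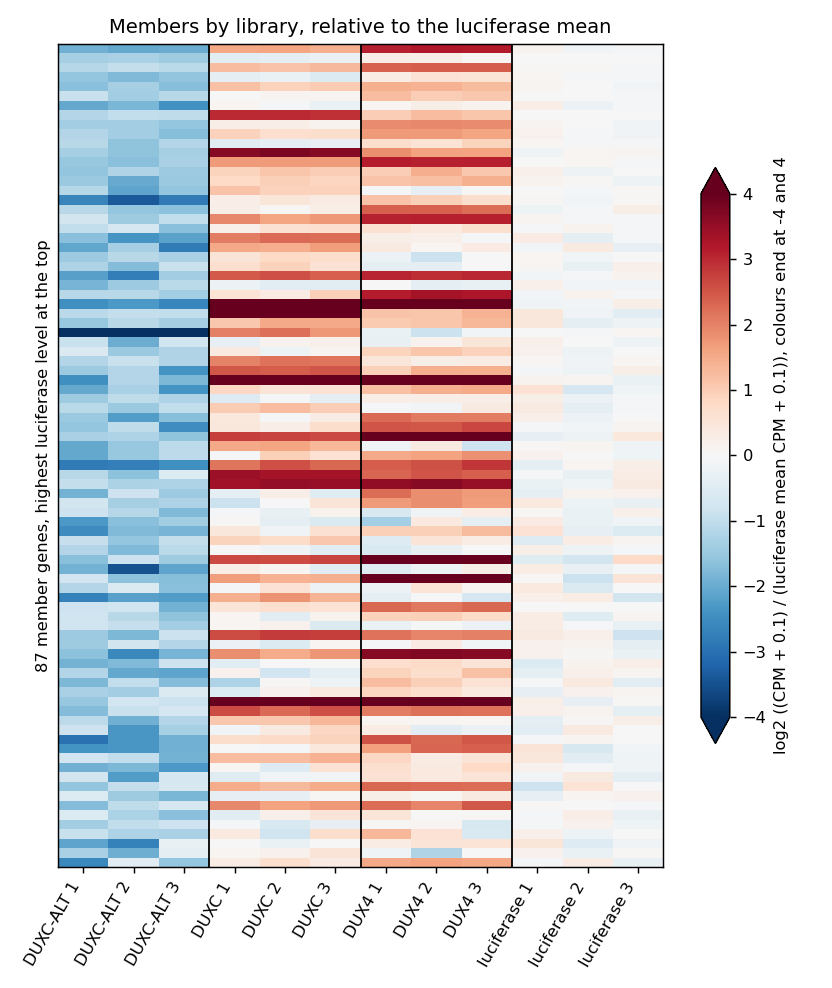
Each line is 1 of the 87 genes and each column 1 library, ordered with the highest luciferase mean at the top; colour gives log2 of the CPM plus 0.1 over the luciferase mean plus 0.1. The DUXC-ALT columns are blue for nearly every gene, and the DUXC and DUX4 columns range from light blue in some single libraries to dark red.

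Nearly all members separated by library. In 81 of the 87 genes all 3 DUXC-ALT libraries lay below the 9 other libraries, a pattern that 7.19% of the 12904 genes showed. All 3 DUXC-ALT libraries lay below all 3 luciferase libraries in 84 members, with a background of 21.6%. For DUXC-ALT below DUXC the count was 85, with a background of 35.4%, and for DUXC-ALT below DUX4 it was 86, with a background of 31.5%. The rule used these contrasts, so nothing is read from the counts beyond how far the chosen means exceed the spread of their libraries. The 6 members with any overlap had luciferase means of 0.510 to 1.15 CPM.

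In edgeR's quasi-likelihood fit over all genes, 69 members passed the filter on low counts for DUXC-ALT against luciferase, and 69 were called lower at an adjusted p under 0.05, with a background of 25.7%; 0 were called higher, with a background of 25.6%. The other 18 members had at most 54 luciferase reads over the 3 libraries and were not tested there. Without the filter the count was 87 of 87. With DESeq2, which gave all 87 members an adjusted p, it was 72, and 66 of these were among the 69. The tested members' median log2 fold change was -1.58, against 0.005 over all tested genes. Against DUXC, a comparison in which the doxycycline label does not differ, 76 of 76 tested members were lower with DUXC-ALT (background 38.2%), at a median log2 difference of -2.64. Against DUX4 it was 80 of 80 (background 37.9%), at a median of -3.08. Without the filter these counts were 85 of 87 against DUXC and 86 of 87 against DUX4. With DESeq2 they were 80 and 84 of 87. The share over all genes is not given for the DESeq2 fits or for the fits without the filter. Members with few DUXC-ALT reads can pass the filter through the group where they are higher. All of these counts follow from the ceiling and the floor of the rule, and those over tested members also from that filter.

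The members with the highest luciferase levels include gene rows 6601 and 8174. Gene row 6601 stood at 10.8, 10.1 and 10.5 CPM in the DUXC-ALT libraries, 121, 123 and 111 CPM in the DUXC libraries and 360.1, 386 and 373 CPM in the DUX4 libraries, against 45.3, 38.8 and 40.4 CPM in the luciferase libraries. No groups overlapped, and the 4 groups kept the order DUXC-ALT, luciferase, DUXC and DUX4 in every library. The log2 fold change from luciferase was -2.06 ± 0.07 with DUXC-ALT, 1.46 ± 0.05 with DUXC and 3.16 ± 0.04 with DUX4 (SE).

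Gene row 8174 had 10.1, 10.3 and 9.26 CPM with DUXC-ALT, 18.5, 19.7 and 20.9 CPM with DUXC and 30.3, 29.8 and 26.1 CPM with DUX4, against 25.2, 24.99 and 25.5 CPM with luciferase. Here DUXC also lay below luciferase in every library, by 0.41 ± 0.07 on the log2 scale (SE), and DUX4 lay above it in every library. Gene row 13100 had 2.75, 3.24 and 2.14 CPM with DUXC-ALT, 12.5, 11.4 and 9.77 CPM with DUXC and 12.5, 13.8 and 13.1 CPM with DUX4, against 14.2, 9.97 and 11.2 CPM with luciferase. Both DUXC and DUX4 overlapped with luciferase in this gene, while the DUXC-ALT mean of 2.71 ± 0.549 CPM lay 4.35 times below the luciferase mean of 11.8 ± 2.18 CPM (SD, n = 3).

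The lowest ratio belonged to gene row 498. It had 0 reads in every DUXC-ALT library, 7.38, 8.37 and 5.99 CPM with DUXC and 1.45, 0.927 and 1.61 CPM with DUX4, against 1.71, 1.68 and 1.85 CPM with luciferase. With 3 reads over the group as the floor, 0 reads leave room for 0.0536 CPM in DUXC-ALT cells, so the gene was at least 32.7-fold lower than in luciferase cells and at least 136-fold lower than in DUXC cells. This bound covers counting error only. DUX4 and luciferase did not overlap for this gene but the fitted log2 difference of DUX4 was -0.43 ± 0.25 (SE; adjusted p = 0.118 by edgeR), and DUX4 lay near the floor of the rule at 0.773 times luciferase.

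Next lowest was gene row 2713, at 0.450, 0.231 and 0.375 CPM with DUXC-ALT, 3.98, 4.64 and 4.20 CPM with DUXC and 7.32, 6.54 and 5.40 CPM with DUX4, against 3.38, 3.07 and 3.45 CPM with luciferase. All 3 DUXC-ALT libraries lay far below the rest, 9.37 times lower on average than luciferase, on 20 reads against 187.

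**Figure D2:**
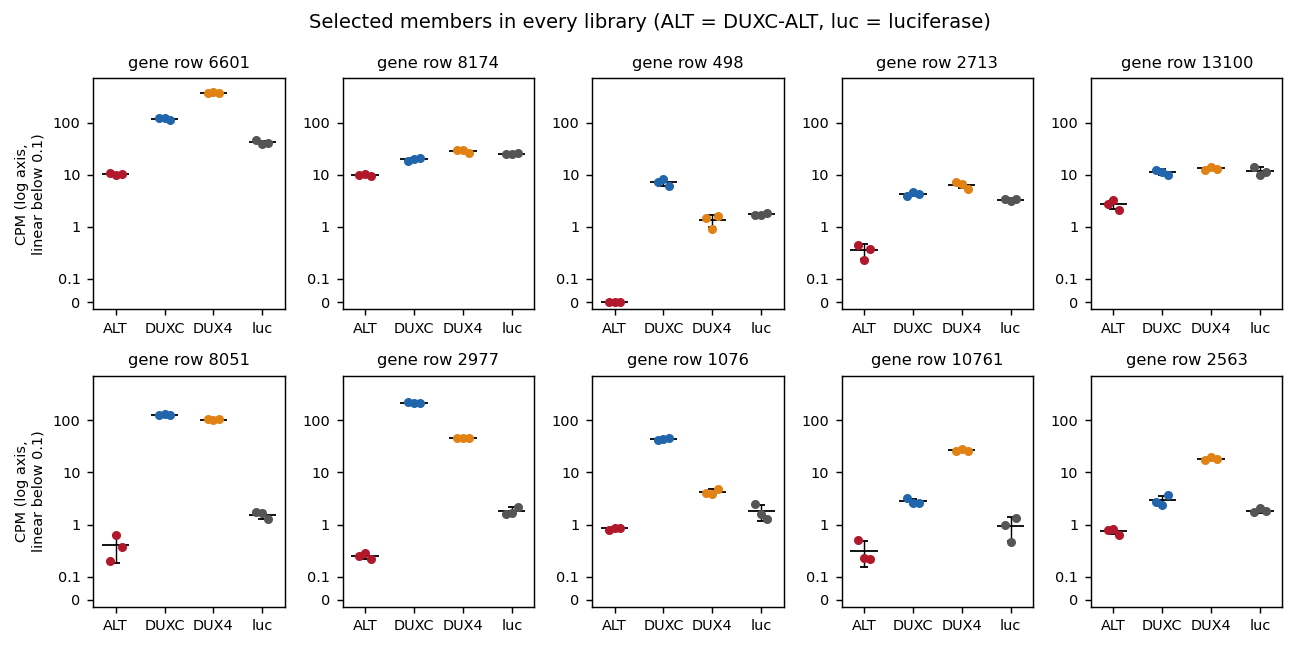
Points are the CPM of each library for 10 members, on an axis that is logarithmic above 0.1 CPM and linear below; bars are means with SD (n = 3). DUXC-ALT (ALT) has the lowest mean in each panel, whereas the order of DUXC, DUX4 and luciferase (luc) changes from gene to gene.

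The label of the set describes a loss with DUXC-ALT alone, yet many members were well above luciferase with the other factors. DUX4 stood at more than 2 times luciferase in 43 members and DUXC in 34, with 25 (28.7%) above 2 times for both and 4 (4.60%) above 8 times for both. At the other end, 7 members (8.05%) lay below luciferase with both DUXC and DUX4, though above the floor. Among the 9031 other genes that passed the same minimum and floors, these joint shares were 8.34%, 0.709% and 21.9%, not matched for level. In 35 of the 87 genes all DUXC-ALT libraries lay below and all 6 DUXC and DUX4 libraries above the 3 luciferase libraries, against 3.81% of the 12904 genes. In the edgeR fits, 46 of 85 tested members were called higher with DUXC than with luciferase (background 38.9%) and 54 of 86 with DUX4 (background 38.4%). Both calls were made for 33 members, only the DUX4 call for 21, only the DUXC call for 13 and neither for 20. Members not tested in a fit count here as not called, and the share of all genes with both calls was not computed. With DUX4, 0 members were called lower by edgeR (background 35.8%). DESeq2 also called 0 lower, a count given without its own background, and 0 were lower in either fit at an unadjusted p under 0.05. With DUXC, 3 members were called lower (background 37.4%), of which 3 were called higher with DUX4. The floor of the rule removed larger falls, and the 3 comparisons share the luciferase libraries.

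The share above 2 times luciferase was read against the 9031 other genes that passed the same minimum and floors. There DUXC exceeded 2 times in 14.7% and DUX4 in 13.7%, against 39.1% and 49.4% of the members. Those genes had higher luciferase CPM, and genes of low CPM more often lay above 2 times. Among genes at 0.5 to 1 CPM the shares were close, at 32.3% of 31 members and 35.0% of 463 others with DUXC, and at 35.5% and 33.7% with DUX4. Among genes at 1 to 2 CPM they were 46.7% of 30 members and 30.0% of 454 others with DUXC, and 18 of 30 members and 29.5% of the others with DUX4. At 2 to 5 CPM they were 35.7% of 14 members and 27.2% of 820 others with DUXC, and 42.9% and 25.9% with DUX4. At 5 to 20 CPM, 3 of 9 members exceeded 2 times with DUXC, against 16.9% of 2393 others, and 6 of 9 with DUX4, against 15.8%. Above 20 CPM it was 2 of 3 members with either factor, against 8.22% of 4901 others with DUXC and 7.26% with DUX4. For both factors above 2 times, the shares were 22.6% of members and 21.0% of others at 0.5 to 1 CPM. They were 33.3% and 18.3% at 1 to 2 CPM, and 21.4% and 16.7% at 2 to 5 CPM. At 5 to 20 CPM it was 3 of 9 members against 9.74%, and above 20 CPM 2 of 3 against 4.14%. All these shares are descriptions without a test, because the rule used both ratios.

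**Figure D3:**
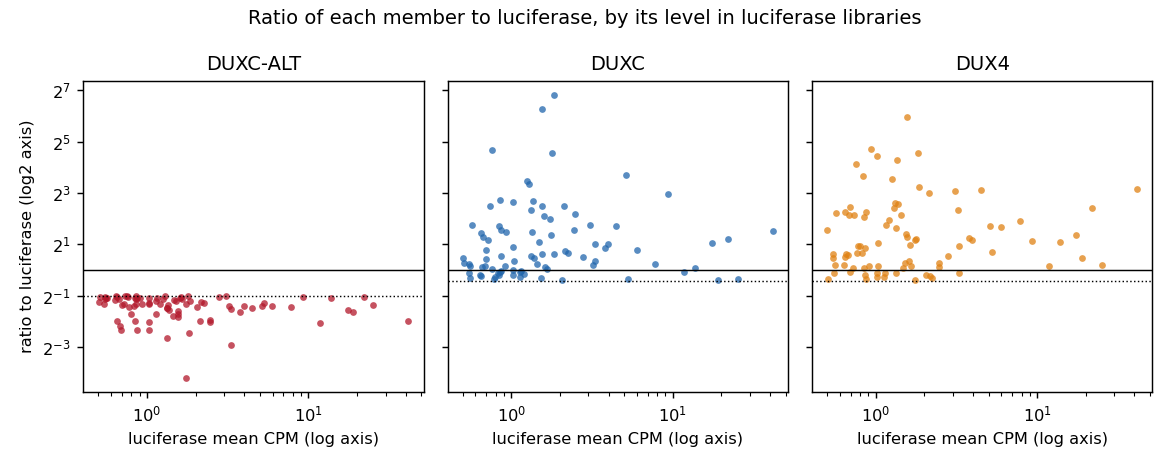
Each point is 1 of the 87 genes, with its luciferase mean CPM on a log axis and its ratio to luciferase on a log2 axis; dotted lines mark the ceiling of 0.5 for DUXC-ALT and the floor of 0.75 for DUXC and DUX4, and the solid line marks equality. All ratios include the offset of 0.1 CPM. DUXC-ALT ratios crowd just under the ceiling and reach 0.0541, in a gene with 0 DUXC-ALT reads where the offset sets the value. DUXC and DUX4 ratios reach 112 and 62.5.

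The largest joint ratios of DUXC and DUX4 to luciferase belonged to gene rows 8051 and 2977. Gene row 8051 had 0.200, 0.636 and 0.375 CPM with DUXC-ALT, 124, 133 and 128 CPM with DUXC and 104, 102 and 104 CPM with DUX4, against 1.71, 1.68 and 1.26 CPM with luciferase. Gene row 2977 had 0.250, 0.289 and 0.214 CPM with DUXC-ALT, 220.5, 213 and 215 CPM with DUXC and 45.1, 46.2 and 46.2 CPM with DUX4, against 1.61, 1.68 and 2.19 CPM with luciferase. In neither gene did any 2 of the groups overlap. Without the offset of 0.1 CPM, the DUXC mean was 82.7 times luciferase for row 8051 and 118 times for row 2977. On the same measure the DUX4 mean was 66.4 and 25.1 times, while DUXC-ALT lay 3.85 and 7.27 times below luciferase.

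DUXC and DUX4 differed from each other in 65 of the 85 members tested, or 76.5%, against 66.1% of all genes tested. Of the 85 members, 23 were higher with DUXC than with DUX4, or 27.1% against a background of 33.1%. Another 42 were lower with DUXC, or 49.4% against a background of 33.0%. The median log2 difference of DUXC over DUX4 was -0.45 in the members and -0.005 over the 13324 genes tested, and its median size without sign was 0.91 against 0.29. Set beside other genes of like luciferase level that passed both floors, this median size was 0.77 in 29 members and 0.60 in 447 others at 0.5 to 1 CPM, and 1.01 in 30 members and 0.44 in 454 others at 1 to 2 CPM. It was 1.05 in 14 members and 0.38 in 820 others at 2 to 5 CPM, and 1.02 in 9 members and 0.26 in 2393 others at 5 to 20 CPM. These sizes are described without a test. Beyond 2-fold, 16 members were called higher and 24 lower with DUXC, counts for which the share over all genes was not computed. The 23 members that were higher with DUXC had median levels of 7.20 CPM with DUXC, 2.97 CPM with DUX4 and 1.56 CPM with luciferase. The 42 that were lower had medians of 2.64 CPM with DUXC, 7.597 CPM with DUX4 and 1.41 CPM with luciferase. The median ratio of DUXC-ALT to luciferase was 0.404 in the first class and 0.378 in the second. For the 20 members tested but not called, log2 differences ran from -0.63 to 0.56, at a median DUX4 level of 0.979 CPM. Members with more reads were called at differences inside that range.

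**Figure D4:**
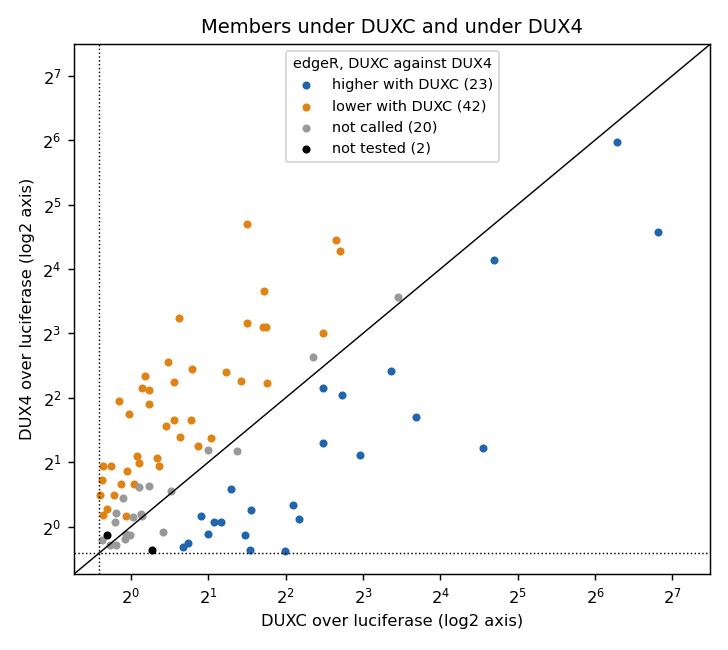
Each point is 1 member, with its DUXC ratio to luciferase across and its DUX4 ratio up, both on log2 axes; dotted lines mark the floor of 0.75 and the diagonal marks equality. Of the points, 42 coloured as lower with DUXC lie above the diagonal, 23 coloured as higher lie below it, 20 were not called and 2 were not tested.

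The largest differences in favour of DUXC were in gene rows 1076 and 498. Gene row 1076 had 41.5, 44.5 and 45.8 CPM with DUXC and 4.04, 3.92 and 4.89 CPM with DUX4, without overlap. Its log2 value of DUXC over DUX4 was 3.37 ± 0.09 (SE, adjusted p = 1.10e-41 by edgeR). With DUXC-ALT it had 0.8003, 0.867 and 0.856 CPM, against 2.46, 1.62 and 1.26 CPM with luciferase, so luciferase replicate 1 was the highest of the control libraries and the DUXC-ALT ratio lay just inside the ceiling. Gene row 498, whose libraries are given above, differed by 2.48 ± 0.19 (SE; adjusted p = 1.95e-18 by edgeR), and all DUXC libraries lay above all DUX4 libraries.

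In favour of DUX4, gene row 10761 had 3.18, 2.59 and 2.64 CPM with DUXC and 25.5, 28.5 and 25.7 CPM with DUX4. The log2 value of DUXC over DUX4 was -3.24 ± 0.11 (SE; adjusted p = 5.66e-36 by edgeR). DUXC-ALT stood at 0.5002, 0.231 and 0.214 CPM, against 0.964, 0.464 and 1.36 CPM with luciferase. The DUXC-ALT and luciferase libraries of this gene overlapped, on 18 reads against 54, and it did not pass the filter on low counts in that comparison.

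Gene row 2563 had 2.75, 2.32 and 3.66 CPM with DUXC and 17.1, 19.4 and 18.3 CPM with DUX4, with a log2 value of -2.66 ± 0.12 for DUXC over DUX4 (SE; adjusted p = 1.11e-28 by edgeR). With DUXC-ALT it had 0.8003, 0.809 and 0.642 CPM, against 1.71, 2.03 and 1.80 CPM with luciferase. Its 4 groups did not overlap. Row 6601, described above, was also lower with DUXC than with DUX4, at a log2 value of -1.65 ± 0.03 (SE), and row 13100 at -0.22 ± 0.09 (SE; adjusted p = 0.0368 by edgeR), a call that was lost with DESeq2 or without DUXC replicate 3, DUX4 replicate 2 or DUX4 replicate 3.

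The rows beside each limit of the rule were close to those just past it. Just inside the ceiling, row 1076 had a DUXC-ALT ratio of 0.4997 and gene row 10203 one of 0.498, on 18 DUXC-ALT reads against 43 luciferase reads. Just outside it, gene row 4733 had a ratio of 0.501 and gene row 9598 one of 0.502. Row 9598 had 5.30, 6.47 and 7.55 CPM with DUXC-ALT, 205, 210.0 and 214 CPM with DUXC and 149, 144 and 148 CPM with DUX4, against 13.5, 13.6 and 11.7 CPM with luciferase. Just inside the floor, gene row 4259 had a DUXC ratio of 0.759, with 14.4, 15.7 and 12.9 CPM against 19.9, 18.3 and 18.5 CPM with luciferase. Just outside it, gene row 4722 had a DUX4 ratio just under 0.75, on 45 DUX4 reads against 70 luciferase reads.

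The rule was then applied to the libraries of 2 replicate numbers, and the genes so chosen were read in the libraries of the third number. These genes were not the member list. With replicate 1, 2 and 3 held out, 68 of 90, 69 of 99 and 62 of 104 of them were members. The labels do not say whether each replicate had its own culture, so the held-out libraries may be technical repeats. The counts below therefore describe the rule and are not an independent test of membership. With replicate 1 held out, 90 genes were chosen, and in the held-out libraries DUXC-ALT lay below luciferase in 86 of them and at 0.5 times or less in 55. With replicate 2 held out these counts were 93 and 49 of 99 genes, and with replicate 3 held out 98 and 51 of 104. Over the 12904 genes the corresponding shares were 39.4% to 41.3% below luciferase and 3.78% to 4.06% at 0.5 times or less. These shares are not matched for level, and 61 of 90, 67 of 99 and 74 of 104 chosen genes lay under 2 CPM. On the means of all 3 libraries, 105 of 766 genes at 0.5 to 1 CPM stood at 0.5 times or less. It was 100 of 781 genes at 1 to 2 CPM and 60 of 6772 above 20 CPM. DUXC-ALT was the lowest of the 4 held-out libraries in 83, 91 and 88 of the chosen genes, against 17.7% to 18.7% of all genes. The ceiling and both floors held in the single held-out libraries for 38, 44 and 39 of the chosen genes. The luciferase minimum was not applied to those libraries, and the share over all genes was not computed.

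The median DUXC-ALT ratio was 0.4002, 0.393 and 0.414 in the libraries that chose the genes, and 0.431, 0.502 and 0.503 in the held-out libraries with replicate 1, 2 and 3 held out. Genes of at least 2 CPM in luciferase cells kept lower held-out medians, of 0.370, 0.398 and 0.384, and lay below luciferase in 29 of 29, 31 of 32 and 30 of 30 cases. Genes under 2 CPM had held-out medians of 0.4696, 0.547 and 0.553. The level was the mean of all 3 luciferase libraries, the held-out one included, so this split is not independent of the held-out ratio.

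**Figure D5:**
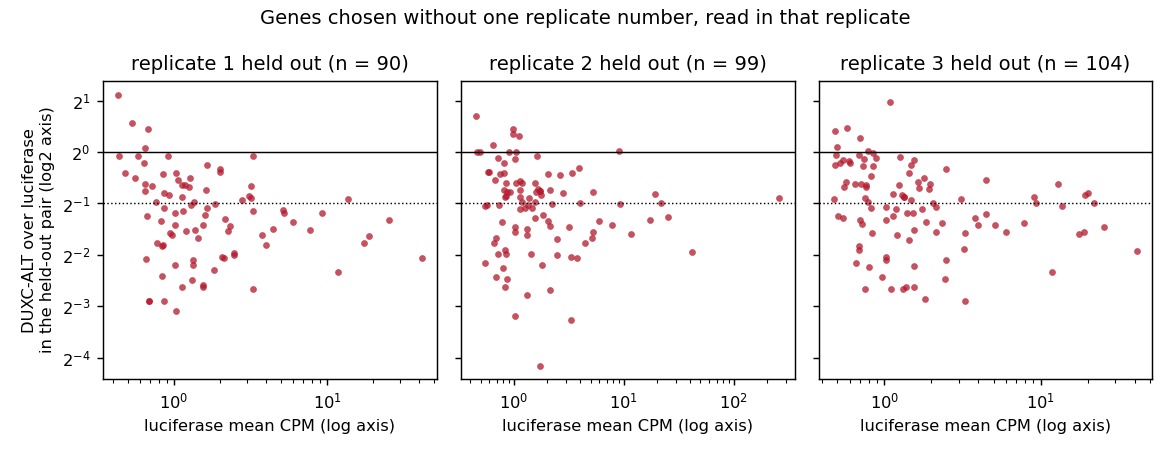
Each point is a gene chosen by the rule without the libraries of 1 replicate number, with its mean luciferase CPM on a log axis and the ratio of DUXC-ALT to luciferase in the held-out pair of libraries on a log2 axis; the dotted line marks 0.5 and the solid line equality. Most points lie below the solid line (86 of 90, 93 of 99 and 98 of 104), and the spread is widest at the lowest levels.

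Of the 87 members, 43 stayed in the set when each of the 12 libraries was left out in turn, and 44 left it at least once. The 43 had a median luciferase level of 1.82 CPM and a median DUXC-ALT ratio of 0.344, and the 44 had 0.920 CPM and 0.457. In the 43, DUXC stood at a median of 1.83 times luciferase and DUX4 at 2.62 times. Rows 6601, 8174, 13100, 2713, 8051, 2977 and 2563 were among the 43, while rows 498, 1076, 10761, 4259 and 10203 were among the 44.

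The members were a part of a larger group lowered with DUXC-ALT. Of the 12904 genes, 429 stood at 0.5 times luciferase or less with DUXC-ALT. Of these, 20.3% were the 87 members, 70 genes kept only the floor for DUX4, 66 kept only that for DUXC, and 206 lay below 0.75 times luciferase with both. In 100 genes all 3 factors stood at 0.5 times or less. The mirror pattern, DUXC and DUX4 at 0.5 times or less with DUXC-ALT at 0.75 times or more, held for 47 genes. Median luciferase levels were 1.333 CPM in the members, 4.73 CPM in the 100 genes and 11.97 CPM in the 47, with no test made because the rules used these levels.

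The members lay scattered through the tables. No 2 members were adjacent, the closest pair being 4 joined rows apart and the median gap 102 rows. Within 10 rows on either side of a member, 0.460% of rows were members, against 0.590% of all joined rows. Replicate spread was read as the variance of a gene's counts over their mean, whose mean over genes is 1 under counting error alone. Over the members with reads in the group this mean was 1.21 in DUXC-ALT, 1.34 in DUXC, 1.52 in DUX4 and 1.35 in luciferase libraries, all above 1. Over all genes at 0.5 CPM or more it was 1.65, 2.39, 1.72 and 2.22 in the same order of groups. The luciferase counts that join the tables were found in no other row for 77 of the 87 members, and for the other 10 the join rests on row order.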

How the data were processed

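The authors deposited gene tables holding raw read counts per gene row, each covering luciferase and 1 factor with 3 libraries apiece, and matching tables of a normalized signal. Dividing a library's deposited counts by a single number gives its deposited normalized signal. The submitters' processing notes name, without saying what each did, DESeq2, Bowtie2 2.2.6, TopHat2 2.1.0, CASAVA and the build canFam3. How reads were counted, including strand and multi-mapping reads, is not given in the sources used here, so genes with near-identical copies or overlaps may share reads. Rows with fewer than 7 reads over a table's libraries are absent from it. The tables carry no gene names, so no row could be matched to a RefSeq gene, and the repeat tables were not used.

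Tables were joined by position over rows with at least 7 luciferase reads, which have the same luciferase counts in the same order in every table. CPM used the column totals. The tests ran on these counts in R 4.3.3 with edgeR 4.0.16 (TMM, filterByExpr, robust quasi-likelihood, Benjamini-Hochberg at 0.05, only the 6 libraries compared); factors against luciferase used the factor's whole table and other pairs the joined rows. Fits were tested on simulated data. DESeq2 1.42.0, RLE factors, no filter, all 12 libraries in 1 fit, a replicate block, leaving out each library and other limits of the rule were tried. Same-numbered libraries did not deviate together (correlations -0.0470 to 0.0263). Counting intervals and floors cover counting error only.

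The members, and the lists compared with them, were chosen with earlier results of these data known. Rows named in the text follow a written rule: the highest luciferase CPM, the lowest DUXC-ALT ratios (overall and at 5 CPM or more), the largest joint DUXC and DUX4 ratios, those closest to luciferase, the largest called DUXC against DUX4 differences in each direction, and the rows beside each limit.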

Additional observations from a re-analysis of the deposited data

Results flagged for a closer look

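DUXC and DUX4 were compared directly by edgeR's test of the difference between the 2 groups. Of 85 members tested, 23 (27.1%, against 33.1% of all genes tested) were higher and 42 (49.4%, against 33.0%) lower with DUXC than with DUX4, and 20 were not called. The rows with the largest called differences were row 1076 at 3.37 and row 498 at 2.48, both higher with DUXC, and row 10761 at -3.24 and row 2563 at -2.66, both lower with DUXC, on the log2 scale. In 35 members every DUXC-ALT library lay below, and every DUXC and DUX4 library above, all luciferase libraries, as in 3.81% of the 12904 genes; this opposition was not tested, because the rule chose members on these groups.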

How the results depend on the processing

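The number of members depended on the limits of the rule. It was 43 with an offset of 0.5 CPM (39 of them among the 87), 56 and 26 with a luciferase minimum of 1 and 2 CPM, 43 and 183 with a DUXC-ALT ceiling of 0.4 and 0.6, and 132 with a floor of 0.6. On the authors' normalized values it was 103, of which 85 were among the 87. Leaving out 1 library gave 82 to 98 members. The counts of members called stayed within 1.5 times of the reported ones under every alternative run. Leaving out 1 library gave 21 to 23 members higher and 38 to 40 lower with DUXC than with DUX4. It gave 71 to 81 called lower with DUXC-ALT than with luciferase, 51 to 55 called higher with DUX4, 43 to 47 called higher and 3 called lower with DUXC, and 75 to 83 and 81 to 86 called lower with DUXC-ALT than with DUXC and DUX4. With the replicate number as a block, a pairing the labels do not state, 23 were higher and 41 lower with DUXC than with DUX4. For row 10203 the lower call with DUXC-ALT was lost with DESeq2 (adjusted p = 0.0599) and without DUXC-ALT replicate 1 (edgeR adjusted p = 0.0580), over a range of leave-one-out log2 values of -1.47 to -1.03. The cause was not tested. A median of 7 to 9 reads per DUXC-ALT library limits how precisely a member's ratio is known.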
